A study of Mus musculus with 6 samples.

Results

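Interferon-stimulated genes were followed in large-intestinal epithelium from mice raised without microbes, with and without the histone deacetylase HDAC3. The members were a named list of 34 mouse genes that interferons are known to induce, and 30 of them were measured among 19533 genes. Of the other 4, Isg15, Gbp2 and Igtp share every probe set of theirs with another gene, and Ifi44 is on no probe set used here. The values come from 6 arrays of total RNA of live, EpCAM-sorted cells from germ-free C57BL/6 mice, each array a biological replicate. HDAC3FF mice (3 arrays) carry floxed Hdac3 alleles and served as controls, and HDAC3ΔIEC mice (3 arrays) lack HDAC3 in intestinal epithelial cells. Both groups lacked a microbiota. The sources used here do not give the ages, the promoter that drives the deletion, or whether a replicate is 1 mouse or a pool. The comparison asks which epithelial transcripts differ with HDAC3 when no bacteria are present.

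Interferons are secreted proteins that signal through cell surface receptors and Janus kinases. Type I and type III interferons activate ISGF3, a complex that holds STAT2 and IRF9 and binds the interferon-stimulated response element (ISRE), whereas interferon gamma acts through the gamma-activated site (GAS). Epithelial cells of the gut respond to type III interferon through the receptor chain encoded by Ifnlr1, and the genes induced include RNA sensors, inhibitors of viral replication and the transcription factors of the pathway itself. HDAC3 is the catalytic subunit of NCoR and SMRT corepressor complexes.

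The ISRE is the sequence through which ISGF3 acts, and it is shown here for the measured members whose ISRE core, with 20 bases on either side, lies wholly upstream of the annotated start. Each line is the RefSeq promoter (build GRCm38.p6) on the strand of the gene, 5′ to 3′, with the ISRE core in capitals.
Ifit1: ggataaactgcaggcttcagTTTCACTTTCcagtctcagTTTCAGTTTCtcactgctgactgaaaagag
Ifit3: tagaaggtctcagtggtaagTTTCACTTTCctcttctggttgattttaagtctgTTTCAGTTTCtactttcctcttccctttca
Rsad2: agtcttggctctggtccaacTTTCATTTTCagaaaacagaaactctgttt
Bst2: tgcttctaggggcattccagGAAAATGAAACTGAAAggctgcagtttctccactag
Stat2: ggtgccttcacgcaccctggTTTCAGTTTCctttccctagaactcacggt
Gbp3: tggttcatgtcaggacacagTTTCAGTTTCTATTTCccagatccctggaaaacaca
The core searched was a pair of GAAA repeats with any 2 bases between them, which reads as TTTC repeats on the other strand, on both strands of the 300 bases from 250 before to 50 after each start. The Ifit1 stretch is at chr19:34640765-34640833 on the plus strand and holds 2 cores, the first beginning 104 bases before the start. The Ifit3 stretch, also with 2 cores, is at chr19:34583353-34583436 on the plus strand, and the Rsad2 stretch is at chr12:26456543-26456592 on the minus strand. The Bst2 stretch is at chr8:71537567-71537622 on the minus strand, and its 2 cores overlap. The Stat2 and Gbp3 stretches are at chr10:128270256-128270305 and chr3:142559979-142560034, both on the plus strand.

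Of the 30 measured members, 20 have a promoter in the RefSeq table, and 10 of these 20 hold the ISRE core, against 1079 of 27025 genes (3.99%). Besides the 6 printed, the core occurs in Oas1a, too close upstream of the start to be shown by this rule, and in Ddx58, Ifih1 and Eif2ak2, downstream of it. The GAS core, searched as TTCNNNGAA, was found in 7 of the 20 and in 9.55% of all genes. Neither core was in the windows of Irf7, Irf9, Trim25, Oasl2, Xaf1 and Dtx3l. Irf1, Irf8, Ifit2 and Ifi35 hold a GAS and no ISRE, and Bst2 holds a GAS that shares bases with its ISRE. These matches describe the letters of the windows and were not measured as binding sites.

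**Figure D1:**
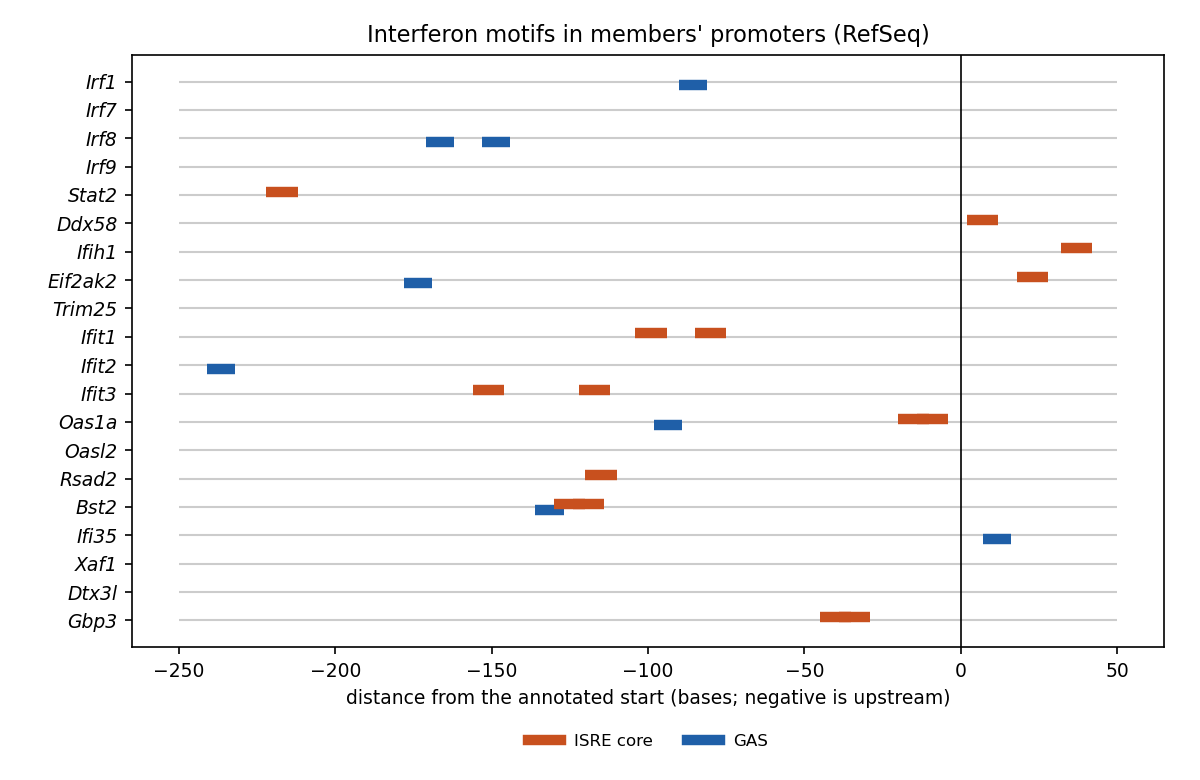
Positions of the ISRE core (orange) and the GAS core (blue) in the RefSeq promoters of the 20 measured members that have one. The horizontal axis is the distance from the annotated start in bases, and promoters of a gene with several starts share its row. In 10 of the 20 rows an ISRE core is drawn, and in 7 a GAS core.

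No member passed the test between the genotypes. Of the 30 measured members, 0 had an adjusted p under 0.05 in limma, fitted over all 19533 genes, where 137 genes (0.701%) were called. At an unadjusted p under 0.05 stood 3 of 30 members (10.0%), against 11.2% of all genes. The HDAC3FF and HDAC3ΔIEC values did not overlap for 3 members, Bst2 and Ifit2 with higher and Ddx58 with lower values in HDAC3ΔIEC, against 16.2% of all genes (8.45% higher, 7.7% lower). Both shares were 10.0% of the members, and 3 of 30 is too few to read a difference from all genes. The members' median log2 fold change (HDAC3ΔIEC minus HDAC3FF) was 0.036, beside 0.011 over all genes, with 19 members above 0 (63.3%, against 53.5% of all genes) and 11 below. The 95% interval of the fold change lay between -1 and 1 for 24 of the 30 members, so a change of more than 1 on the log2 scale fell outside the interval for these 24 and not for the other 6. With 3 arrays against 3, the smallest two-sided p of an exact permutation test is 0.1. In bulk cells, a change in RNA per cell and a change in the share of cells that express a gene cannot be told apart.

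**Figure D2:**
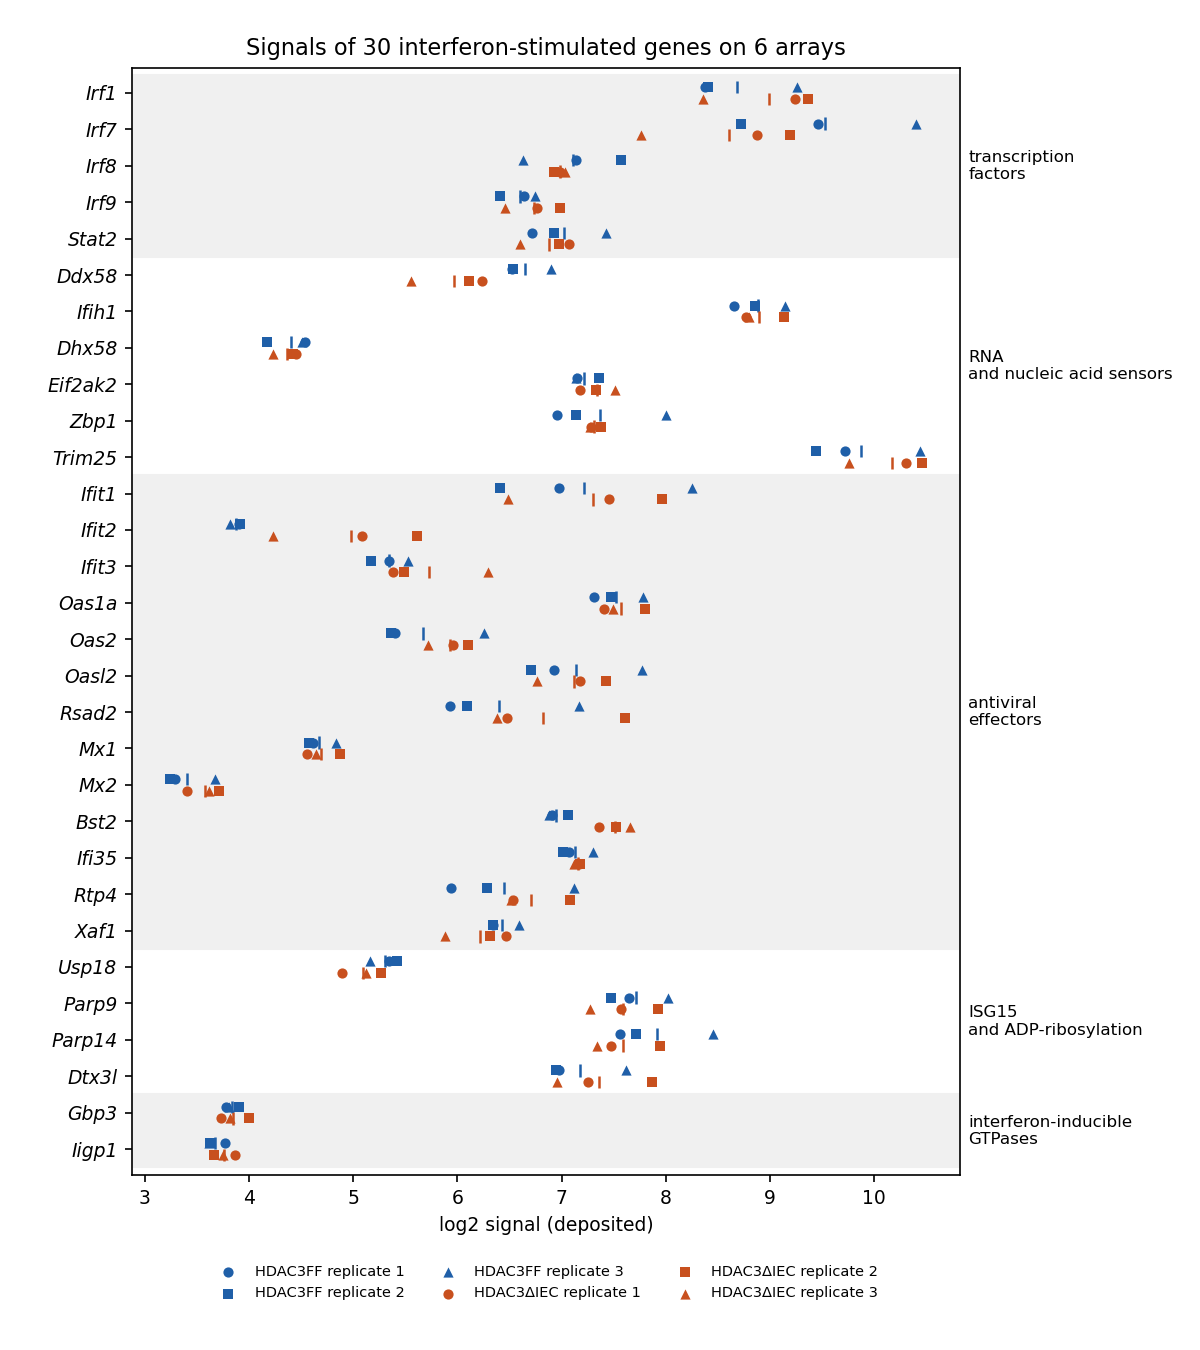
Deposited log2 signals (horizontal axis) of the 30 measured members, grouped by role. Blue points are HDAC3FF and orange points HDAC3ΔIEC arrays, the shape gives the replicate number, and the short vertical lines are group means of 3 arrays. The 2 colours are apart for Bst2, Ifit2 and Ddx58 and overlap in the other 27 rows.

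The transcription factors of the interferon pathway did not separate by genotype. Irf7, which drives further production of type I interferon, read 9.46, 8.72 and 10.41 on the HDAC3FF arrays and 8.87, 9.19 and 7.76 on the HDAC3ΔIEC arrays. The groups overlapped, and the array of HDAC3FF replicate 3 was the highest and that of HDAC3ΔIEC replicate 3 the lowest of all 6. The log2 fold change of Irf7 was -0.92 ± 0.49 (SE, n = 3 each; limma adjusted p = 0.574), with a 95% interval from -2.07 to 0.23. Irf1, a factor induced by interferon gamma through a GAS and active in epithelial defence, read 8.38, 8.40 and 9.26 in HDAC3FF and 9.24, 9.36 and 8.36 in HDAC3ΔIEC. Here replicate 3 of each group stood apart from the other arrays of its own group, high in HDAC3FF and low in HDAC3ΔIEC (log2 fold change 0.31 ± 0.33, SE; adjusted p = 0.834). Irf9, the DNA-binding subunit of ISGF3, read 6.64, 6.41 and 6.74 in HDAC3FF and 6.76, 6.99 and 6.46 in HDAC3ΔIEC. Its groups overlapped (0.14 ± 0.15). Stat2, the ISGF3 subunit that carries the transactivation domain, and Irf8, a factor best known from myeloid and B cells, had log2 fold changes of -0.14 ± 0.20 and -0.13 ± 0.22. In Irf8 the order differed from the other factors, with HDAC3FF replicate 3 lowest of all arrays at 6.63 and replicate 2 highest at 7.57.

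Among the sensors of foreign nucleic acid, Ddx58, which encodes the RNA helicase RIG-I, had the largest difference between the groups. It read 6.53, 6.54 and 6.89 in HDAC3FF and 6.23, 6.12 and 5.55 in HDAC3ΔIEC. Its groups were apart, with a mean in HDAC3ΔIEC of 62.2% of that in HDAC3FF. This log2 difference was -0.68 ± 0.19 (SE, n = 3 each) and did not pass (limma adjusted p = 0.215). Its partner sensor Ifih1, the gene of MDA5, had a log2 fold change of 0.02 ± 0.15 and Dhx58, the gene of the third helicase of this family, LGP2, one of -0.04 ± 0.13. Trim25, a ubiquitin ligase that acts on RIG-I, read 9.72, 9.44 and 10.44 in HDAC3FF and 10.31, 10.46 and 9.76 in HDAC3ΔIEC. Replicate 3 again stood high in HDAC3FF and low in HDAC3ΔIEC, and the groups overlapped (0.31 ± 0.28; adjusted p = 0.799). Eif2ak2, which encodes the RNA-activated kinase PKR, was close in both groups, at 7.15, 7.36 and 7.14 in HDAC3FF and 7.18, 7.33 and 7.51 in HDAC3ΔIEC (0.13 ± 0.12). Zbp1, a sensor of Z-form nucleic acids that can start necroptosis, read 6.96, 7.14 and 8.01 in HDAC3FF against 7.28, 7.38 and 7.27 in HDAC3ΔIEC, so that 1 control array lay above the other 5.

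The 13 measured antiviral effectors had 11 positive and 2 negative log2 fold changes and a median of 0.18, where 53.5% of all genes were above 0. Of the positive ones, Mx1, Ifi35, Oas1a and Ifit1 were close to 0, at 0.02, 0.02, 0.05 and 0.09. They turned negative without HDAC3FF replicate 1. Bst2, which encodes tetherin, a membrane protein that holds budding virions at the cell surface, had the smallest p of all members. Its signals were 6.90, 7.06 and 6.88 in HDAC3FF and 7.36, 7.52 and 7.66 in HDAC3ΔIEC. Every HDAC3ΔIEC array lay above every control array, with a log2 fold change of 0.56 ± 0.11 (SE, n = 3 each), or 1.48-fold, that did not pass (limma adjusted p = 0.0793). At an adjusted p under 0.10, Bst2 was the 1 member called, against 1.64% of all genes. The 95% interval ran from 0.32 to 0.81, and the fold change stayed between 0.49 and 0.64 with any 1 array left out.

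Ifit2, whose protein binds viral RNA, had the largest log2 fold change of the members. It read 3.91, 3.91 and 3.82 in HDAC3FF and 5.09, 5.61 and 4.23 in HDAC3ΔIEC. All of these but the value of HDAC3ΔIEC replicate 2 lay below the median signal of every array. The groups did not overlap, but the HDAC3ΔIEC arrays were spread over 1.39 on the log2 scale and HDAC3ΔIEC replicate 3 lay closest to the controls. The log2 fold change of 1.10 ± 0.31 (SE), or 2.14-fold, did not pass (adjusted p = 0.213). Its chromosomal neighbour Ifit3 behaved differently: it read 5.35, 5.18 and 5.52 in HDAC3FF and 5.39, 5.49 and 6.29 in HDAC3ΔIEC. In Ifit3 the array of HDAC3ΔIEC replicate 3, lowest of its group for Ifit2, was the highest of all 6 (0.37 ± 0.24; adjusted p = 0.659). The third member of the family, Ifit1, which binds viral RNA caps, spanned the widest range within a group, at 6.98, 6.41 and 8.26 in HDAC3FF and 7.45, 7.97 and 6.49 in HDAC3ΔIEC. The 2 group means were close (0.09 ± 0.52), while the HDAC3FF arrays alone differed by up to 3.59-fold.

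The oligoadenylate synthetases make the second messenger that activates the antiviral ribonuclease RNase L. Oas1a read 7.31, 7.48 and 7.78 in HDAC3FF and 7.41, 7.80 and 7.50 in HDAC3ΔIEC, nearly the same range in both (0.05 ± 0.15; adjusted p = 0.960). The log2 fold changes of Oas2 and the related Oasl2 were 0.25 ± 0.24 and -0.01 ± 0.29. Rsad2, the gene of viperin, an enzyme that makes a chain-terminating nucleotide, read 5.93, 6.09 and 7.17 in HDAC3FF and 6.47, 7.61 and 6.38 in HDAC3ΔIEC. One array in each group, HDAC3FF replicate 3 and HDAC3ΔIEC replicate 2, stood above the others, and the groups overlapped (0.42 ± 0.42). Rtp4 showed the same order of arrays within the controls, at 5.94, 6.29 and 7.12, with 6.53, 7.08 and 6.51 in HDAC3ΔIEC. Mx1 and Mx2, dynamin-like GTPases that block viral replication and are defective in most inbred mouse strains, had fold changes of 0.02 ± 0.12 and 0.18 ± 0.14. Xaf1 had one of -0.21 ± 0.16 and Ifi35 one of 0.02 ± 0.10. Ifit3 and Oas1a have close paralogs that the probes of these genes may also detect.

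The genes around ISG15, a ubiquitin-like modifier, and around ADP-ribosylation had 3 negative and 1 positive fold changes. Usp18, the protease that removes ISG15 and also restrains the type I receptor, read 5.35, 5.42 and 5.16 in HDAC3FF and 4.89, 5.26 and 5.12 in HDAC3ΔIEC (-0.22 ± 0.12, SE; limma adjusted p = 0.606). Parp14, Dtx3l and Parp9 are consecutive protein-coding genes in the RefSeq order, and the DTX3L and PARP9 proteins form a ubiquitin ligase complex. Parp14, an ADP-ribosyltransferase, read 7.56, 7.72 and 8.45 in HDAC3FF and 7.47, 7.95 and 7.34 in HDAC3ΔIEC (-0.33 ± 0.26; adjusted p = 0.747). Dtx3l read 6.98, 6.94 and 7.62 in HDAC3FF and 7.25, 7.87 and 6.95 in HDAC3ΔIEC (0.18 ± 0.27), and Parp9 had a fold change of -0.12 ± 0.20. In all 3 neighbours HDAC3FF replicate 3 was the highest control array and HDAC3ΔIEC replicate 2 the highest of its group.

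The interferon-inducible GTPases attack the vacuoles of intracellular bacteria and parasites. Only Gbp3 and Iigp1 were measured, and both were dim. Gbp3 read 3.78, 3.91 and 3.81 in HDAC3FF and 3.73, 4.0 and 3.82 in HDAC3ΔIEC (0.02 ± 0.10, SE), and Iigp1 read 3.77, 3.62 and 3.62 against 3.86, 3.67 and 3.75 (0.09 ± 0.09). These signals lie below the median of every array, and a change in so dim a gene may not be detectable. Of the 30 members, 23 had a mean signal above the median of all genes, 5.34.

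**Figure D3:**
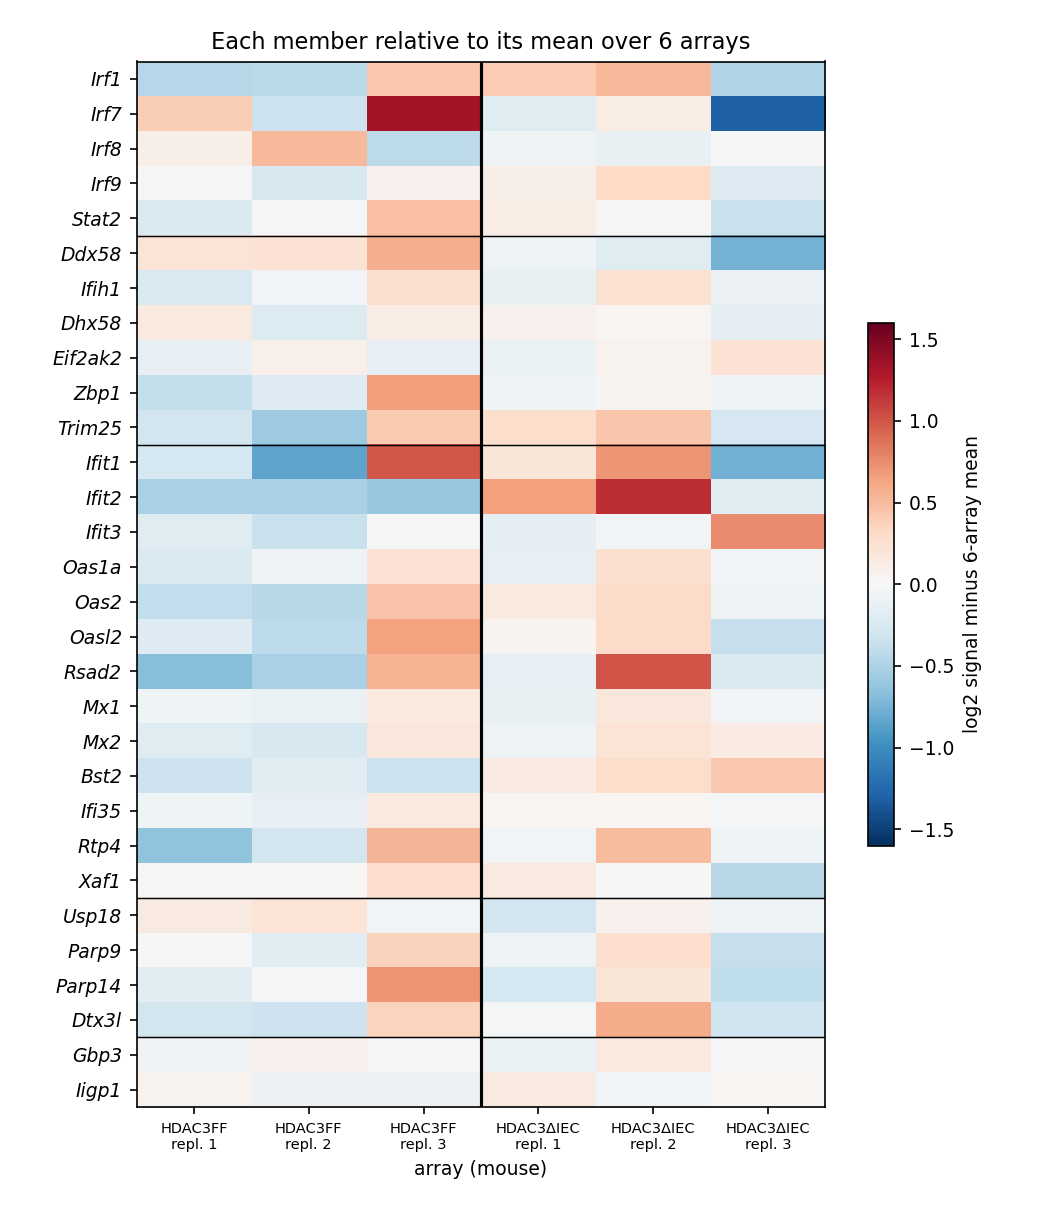
Each measured member's log2 signal on each array (columns) minus its mean over the 6 arrays. The colour scale runs from blue (lower) to red (higher), the thick vertical line separates HDAC3FF from HDAC3ΔIEC, and horizontal lines separate the role groups. HDAC3FF replicate 3 and HDAC3ΔIEC replicate 2 are red in most rows: 22 and 25 of the 30 members lay above their 6-array mean there.

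The members varied together between replicates of one genotype. HDAC3FF replicate 3 was the highest control array for 22 of the 30 members (73.3%), against 39.2% of all genes, and HDAC3ΔIEC replicate 2 was the highest of its group for 21 of 30 (70.0%), against 29.3%. Both held at once for 18 members (60.0%), against 13.6% of all genes. Above the median signal, the order held for 16 of 23 members (69.6%), against 19.0% of genes. It was not particular to the members. On the other interferon lists described below, it held for 6 of 9 receptors and kinases (66.7%) and 3 of 5 inhibitors (60.0%). It also held for 4 of 12 induction genes, 15 of 48 other interferon-stimulated genes and 1 of 8 ligands. Among the members this order held in Ifit1, Oas1a, Oas2, Oasl2, Rsad2, Rtp4, Irf1, Irf7, Irf9, Trim25 and the 3 neighbours around Dtx3l, and did not hold in Bst2, Ifit2, Ifit3 or Ddx58. HDAC3ΔIEC replicate 3 was the lowest of its group for 19 members (63.3%), against 32.6% of all genes. The median of the members' deviation from their 6-array means was -0.19, -0.19 and 0.26 on the HDAC3FF arrays and -0.05, 0.21 and -0.12 on the HDAC3ΔIEC arrays. On this measure the 2 highest arrays came from different genotypes. The pattern was picked after the values were seen and is given as a description, and members of one pathway are not independent of each other.

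The spread between replicates of one genotype was wide in these genes. The median within-group SD was 0.31 over the 30 members, beside 0.14 over all genes, and 0.37 beside 0.18 among those above the median signal. In 8 members (26.7%, against 3.05% of all genes) the arrays of at least 1 group spanned more than 1 on the log2 scale. These 8 were Irf1, Irf7, Zbp1, Ifit1, Ifit2, Oasl2, Rsad2 and Rtp4. For Irf7 the span was 3.21-fold in HDAC3FF and 2.70-fold in HDAC3ΔIEC, and for Rsad2 2.35-fold in each, which are wider than the 1.89-fold lower (Irf7) and 1.34-fold higher (Rsad2) mean levels in HDAC3ΔIEC.

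A high control array and a low HDAC3ΔIEC array both lower the fold change, and the members' median was higher without either replicate 3 array. A rise was not particular to these 2 arrays, as the median was also higher without HDAC3ΔIEC replicate 1, at 0.0795. Without HDAC3ΔIEC replicate 3 it was 0.075, with 3 members at an unadjusted p under 0.05, against 10.3% of all genes in that fit. Without HDAC3FF replicate 3 it was 0.16, with 9 of 30 members at an unadjusted p under 0.05, against 15.4% of all genes in that fit. No member was called in either fit, while the calls over all genes numbered 29 and 430. Without replicate 3 of both groups, an omission chosen with earlier results of these data known, 26 of 30 members had positive fold changes, against 51.2% of all genes, with a median of 0.20. The 7 members that turned from negative to positive were Stat2, Dhx58, Zbp1, Oasl2, Xaf1, Parp9 and Parp14. HDAC3FF replicate 3 was the highest control array for 22 of the 30 members, and HDAC3ΔIEC replicate 3 the lowest of its group for 19. Leaving out these 2 arrays raises the fold changes of such members by construction. The calls and p-values of this fit are therefore no test of the members. In that limma fit of 2 arrays against 2, 744 of all genes and 4 members were called, and 14 members had an unadjusted p under 0.05, against 18.4% of all genes. The 4 called members were higher in HDAC3ΔIEC: Irf1 (log2 fold change 0.91, adjusted p = 0.0106), Ifit2 (1.44, adjusted p = 0.0142), Oas2 (0.65, adjusted p = 0.0291) and Trim25 (0.80, adjusted p = 0.0296). Ifit1 and Rsad2 had fold changes of 1.02 and 1.03 there and were not called. Irf7 and Bst2 had -0.059 and 0.46. Without HDAC3FF replicate 1 or HDAC3ΔIEC replicate 2 the median turned to -0.0060 and -0.066, and without HDAC3FF replicate 2 it was 0.036.

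**Figure D4:**
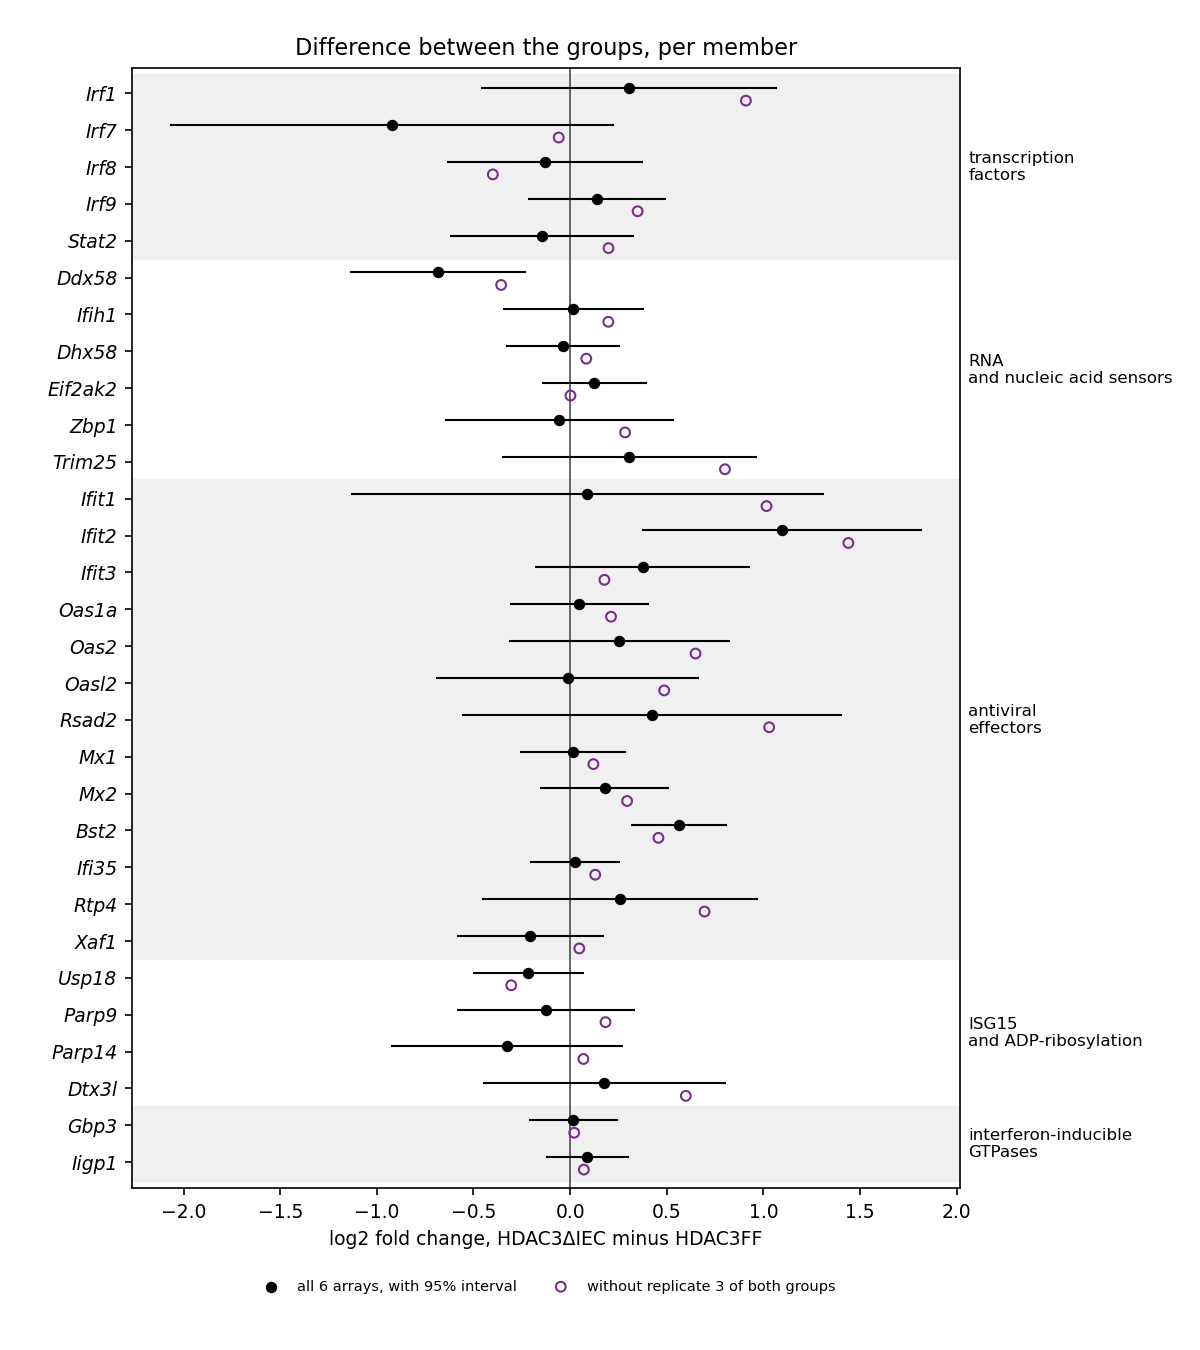
Log2 fold change of each measured member, HDAC3ΔIEC minus HDAC3FF. Black points with lines are the fit of all 6 arrays with its 95% interval, and open purple circles are the fit without replicate 3 of both groups, drawn without interval. The interval of all 6 arrays lies on one side of 0 for Bst2, Ifit2 and Ddx58, and 26 of the 30 open circles lie above 0.

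Beyond the members, 82 of 96 other listed genes of the interferon system were measured, and 1 passed. Irgm1, an immunity-related GTPase of the family that also holds Igtp, read 7.43, 7.03 and 7.32 in HDAC3FF and 6.32, 6.50 and 6.47 in HDAC3ΔIEC. It fell in HDAC3ΔIEC, with a log2 fold change of -0.83 ± 0.12 (SE, n = 3 each), or 56.2% of the control level (limma adjusted p = 0.0418). The call was lost without HDAC3FF replicate 1 (adjusted p = 0.144) or without HDAC3ΔIEC replicate 1, 2 or 3 (0.150, 0.166 and 0.107), and also with quantile normalization (0.0719) or adjustment over all probe sets (0.0535), while the fold change stayed between -0.95 and -0.74 with any 1 array left out. Of the 48 measured genes on the list of other interferon-stimulated genes, Irgm1 was the 1 call, and the other 47 did not pass, with a list median of -0.04. Among all 82, 11 had groups that did not overlap (13.4%, against 16.2% of all genes), 3 of them higher and 8 lower in HDAC3ΔIEC.

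No interferon gene itself passed. The 8 measured ligands had fold changes between -0.22 and 0.07, and the smallest p belonged to Ifna2 (-0.18 ± 0.08, SE) and Ifnl2 (-0.19 ± 0.11; limma adjusted p = 0.483 and 0.626). Of the 9 measured receptor chains and kinases none passed. Jak2, a kinase of the interferon gamma receptor, read 8.17, 8.24 and 8.68 in HDAC3FF and 8.78, 9.05 and 8.92 in HDAC3ΔIEC, with no overlap and a fold change of 0.55 ± 0.15 (adjusted p = 0.200). Without HDAC3FF replicate 3, its highest control array, Jak2 was called (0.71, adjusted p = 0.0306). Leaving out the highest control raises this fold change by construction, so that call is no test of Jak2. With any other array left out Jak2 was not called (limma adjusted p from 0.312 to 0.540). Ifnar2, a chain of the type I receptor, had a fold change of -0.18 ± 0.15. Ifnlr1, the specific chain of the type III receptor, read 5.45, 5.53 and 6.25 in HDAC3FF and 6.10, 6.31 and 5.58 in HDAC3ΔIEC, with the same array highest in each group as in Irf1 and Trim25, and was chosen after its values were seen. None of the 12 measured genes of interferon induction passed, with the smallest p for the DNA sensor Cgas (0.13 ± 0.09) and the RNA receptor Tlr3 (0.20 ± 0.14). None of the 5 inhibitors passed: Pias1, a SUMO ligase that restrains interferon signalling, had a fold change of -0.45 ± 0.11 with no overlap (adjusted p = 0.150), and Socs3, an inhibitor of Janus kinase signalling, one of 0.22 ± 0.12.

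The arrays had median signals between 5.30 and 5.35. Hdac3, the targeted gene, averaged 7.12 ± 0.21 (SD, n = 3) in HDAC3FF and 6.27 ± 0.29 in HDAC3ΔIEC with no overlap, and did not pass (log2 fold change -0.86 ± 0.17, SE; limma adjusted p = 0.0937). Its probe set may include probes outside the deleted part, which check nothing. Of the epithelial markers, all 6 lay above the median signal, and their summed signal on the log2 scale ran from 14.05 to 14.30 in HDAC3FF and from 14.30 to 14.42 in HDAC3ΔIEC. Of the 6 fold changes 4 were above 0, with a median of 0.14, and those of Epcam (-0.06 ± 0.10) and Cdx2 (-0.22 ± 0.10) were below. Krt8 and Krt20, a keratin of mature surface cells, had fold changes of 0.26 ± 0.08 and 0.41 ± 0.16 and did not pass. Krt20 read 11.79, 11.55 and 12.22 in HDAC3FF and 12.23, 12.31 and 12.25 in HDAC3ΔIEC, and 4 of the 6 epithelial markers (Epcam, Cdh1, Krt20 and Vil1) were highest on the same array of each group as the 18 members. The part of epithelial maturity in the members' values was not tested.

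Markers of other cells were mostly dim. Of 11 myeloid, 11 T and NK cell, 6 B, plasma and plasmacytoid dendritic cell and 8 fibroblast and endothelial markers, 2, 1, 0 and 2 lay above the median of all genes. The array order of the 18 members held for 0 myeloid, 1 T and NK cell, 0 B cell and 3 fibroblast and endothelial markers. The summed signal of the myeloid markers ran from 8.31 to 8.47 in HDAC3FF and from 8.04 to 8.21 in HDAC3ΔIEC. Of these, C1qa, a complement gene, fell and was the 1 gene of the marker lists that passed (-1.71 ± 0.19, SE; limma adjusted p = 0.0204). The lower sum was not shared by the list: 6 of the 11 fold changes were above 0, with a median of 0.041. The partner genes C1qb and C1qc were at 0.068 ± 0.10 and -0.11 ± 0.11, and Cd68 (0.51 ± 0.13), Cx3cr1 (0.22 ± 0.10) and Itgax (0.14 ± 0.08) had higher values with no overlap and did not pass. With C1qa, the groups did not overlap for 4 of the 11 myeloid markers (36.4%, against 16.2% of all genes). The T and NK cell sums ran from 7.91 to 8.05 and from 7.82 to 7.98, and 6 of the 11 fold changes were above 0, with a median of 0.026. The brightest of these, Ccl5 and Cd3e, were at -0.26 ± 0.15 and -0.22 ± 0.09, and Gzmb and Cd4 at 0.21 ± 0.08 and 0.12 ± 0.08. The groups did not overlap for 3 of the 11 (27.3%, against 16.2% of all genes), Cd3e with lower and Gzmb and Cd4 with higher values. None of the 11 passed. The B cell sums ran from 6.56 to 6.69 and from 6.56 to 6.74 (Cd79b -0.16 ± 0.16, Mzb1 0.23 ± 0.11). The fibroblast and endothelial sums ran from 7.84 to 8.09 and from 7.82 to 7.92 (Col1a1 -0.06 ± 0.09, Dcn -0.21 ± 0.21), highest on HDAC3FF replicate 3. The part of these cells in the members' values was not tested.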

How the data were processed

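Per the labels' protocols, Trizol RNA with a biotin label went onto 1 array for each of 6 samples. What the authors deposited is a log2 signal for every probe set on every array. The submitters' processing notes list Affymetrix Power Tools; the sources used here do not give its version, background correction, normalization or filters. The values were used as deposited. Of 24939 probe sets, 21105 name 1 gene, 1254 several and 2580 none in the platform annotation; each gene is represented by its brightest probe set, averaged over all arrays (19533 genes). Groups were compared by limma 3.58.1 in R 4.3.3 (lmFit, eBayes, two-sided, no covariate), with Benjamini-Hochberg adjustment over all genes and a threshold of 0.05, after a test on simulated data. SE and intervals are limma's moderated ones. The series design names 3 biological replicates per group; where these share a source, p-values measure only the spread between these samples. No array depth applies; the number of arrays limits the precision.

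The members, lists and alternatives were chosen with earlier results of these data known. In each role group, the 3 members with the smallest p and the one with the highest mean are given per array; of the other pathway lists the called genes or else the 2 with the smallest p; of the marker lists the 2 brightest. Ifit1, Rsad2, Rtp4, Zbp1, Irf8, Ifnlr1, Epcam, Cdx2, C1qb, C1qc, Cx3cr1, Itgax, Gzmb, Cd4 and the genes named only among the additional observations were added after their values were seen. Promoters came from a RefSeq table of build GRCm38.p6, matched by symbol. Figures were drawn with matplotlib 3.10.9.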

Additional observations from a re-analysis of the deposited data

How the results depend on the processing

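The count of called members was 0 under every alternative run except 2: it was 1 (Bst2) at an adjusted p under 0.10 and 4 without replicate 3 of both groups. The count of 4 is no test of the members, because most of them stood highest or lowest of their group on the omitted arrays. With each array left out in turn the count of called members was 0 throughout, and the members' median log2 fold change ran from -0.066 to 0.16. Of the other pathway genes, 0 were called with quantile normalization and with adjustment over all probe sets, where the call of Irgm1 was lost. With 1 array left out 0 to 3 were called, the 3 being Jak2, Irgm1 and Ifitm3 without HDAC3FF replicate 3. Without replicate 3 of both groups 6 were called (Helz2, Oasl1, Ifnlr1 and Jak2 higher, Ifitm3 and Irgm1 lower). Among the controls, HDAC3FF replicate 3 was the highest array for Helz2, Oasl1, Ifnlr1 and Jak2 and the lowest for Ifitm3. Leaving it out moves the fold changes of these genes by construction, so their calls are no test. With an adjusted p under 0.10, Hdac3 was called (log2 fold change -0.86). The direction of Irgm1 turned in none of the alternatives run. Among the members, none of which was called, 7 turned without replicate 3 of both groups (Parp14 to 0.069), 0 to 7 with 1 array left out, 5 with array weights, 2 with quantile normalization (Ifih1 and Oasl2) and 1 with arrays centred on their median (Oasl2). Of the members given by the naming rule, those that turned with 1 array left out were Oas1a (range -0.069 to 0.18), Dtx3l (-0.078 to 0.40) and Gbp3 (-0.059 to 0.076). The cause was not tested. Same-numbered arrays did not deviate together (correlations of -0.024, -0.065 and -0.20 over all genes). With 3 arrays per group this check cannot exclude a pairing, and the sample titles name none. With the replicate number as a block 12 genes were called over all genes, against 137 without the block. In that fit 0 members and 0 pathway genes were called (Irgm1 adjusted p = 0.154). Over all genes the count ran from 13 to 430 with 1 array left out. The low signals of 7 members limit what could be detected in them.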

Other observations

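Several interferon-stimulated genes outside the member list, chosen after their values were seen, were highest on the same array of each group as most members. Oasl1, a relative of the oligoadenylate synthetases that restrains Irf7 translation, read 8.39, 8.08 and 9.62 in HDAC3FF and 9.14, 9.25 and 8.53 in HDAC3ΔIEC, and the helicase gene Ddx60 read 8.41, 8.18 and 9.30 against 8.72, 8.96 and 8.47. Oas3 stood high on HDAC3FF replicate 3 alone, at 7.48 beside values from 6.17 to 6.47 on the other 5 arrays. Of the 48 measured genes of that list, 15 (31.2%) were highest on HDAC3FF replicate 3 among the controls and on HDAC3ΔIEC replicate 2 in the other group.

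The membrane proteins of the IFITM family, which block virus entry, took another order: Ifitm3 read 9.95, 10.01 and 9.11 in HDAC3FF and 9.30, 9.05 and 9.45 in HDAC3ΔIEC, with HDAC3FF replicate 3 the lowest control array. Ifitm1 and Ifitm2 were also lowest among the controls on that array, at 4.73 and 8.80. Of the 48 measured other interferon-stimulated genes, 8 had no overlap between the groups (16.7%, against 16.2% of all genes), 6 lower and 2 higher in HDAC3ΔIEC. Besides Irgm1, the lower ones were Gbp7 (log2 fold change -0.51 ± 0.12, SE), the nuclear body gene Sp100 (-0.79 ± 0.20), the exonuclease gene Isg20 (-0.40 ± 0.12), Parp10 (-0.14 ± 0.08) and Nmi (-0.37 ± 0.13), whose protein binds that of Ifi35. The higher ones were Oas1b (0.25 ± 0.10) and Gbp5 (0.20 ± 0.09). Of these genes only Irgm1 passed.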
